A study of Mus musculus with 12 samples.

Results

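The comparison described here is of the heart with a fast skeletal muscle in the same untreated mice. It takes the 6 arrays labelled as control diet among the 12 arrays of the study, namely 3 of heart and 3 of skeletal muscle. All 12 samples came from male C57BL/6 mice aged 18 weeks. The control diet, which contained 0.02% iron, was fed to the 3 mice used here, and the other 6 arrays came from 3 mice fed a diet with 2% iron. Both groups were otherwise untreated and carried no transgene. The heart sample was total RNA of cardiac muscle, whereas the skeletal muscle was described in the study's methods as the extensor digitorum longus, a fast-twitch muscle of the lower leg. Each sample was hybridised to an array of its own, and heart and skeletal muscle with the same replicate number were taken as coming from the same mouse.

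Heart and skeletal muscle are both striated. Each contracts when calcium released from the sarcoplasmic reticulum binds troponin and allows myosin to pull on actin, but the sarcomere and calcium-handling proteins are largely encoded by different genes of the same families. The heart beats without pause and obtains most of its ATP from the oxidation of fatty acids in mitochondria. Fast skeletal muscle works in short bursts that rest on phosphocreatine and on the breakdown of glycogen to lactate, and it is driven by a motor nerve rather than by neighbouring cells.

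Array signals were compared as log2 differences, heart minus skeletal muscle, with limma (adjusted p below 0.05, Benjamini-Hochberg over all 46133 probes). Of these probes 2410 (5.22%) were higher and 1901 (4.12%) lower in heart, together 9.34%, and 356 (0.772%) were at least 2-fold higher and 413 (0.895%) at least 2-fold lower. The 3 heart signals lay above all 3 skeletal muscle signals for 11.1% of the probes and below all of them for 9.79%. When every gene was represented by its brightest probe, 1761 of 17658 genes (9.97%) were higher and 1210 (6.85%) lower in heart, with a median difference of 0.0083 over all genes. At least 2-fold differences were found for 263 genes higher (1.49%) and 282 genes lower (1.60%) in heart. A probe was regarded as background when it was no brighter than the 95th percentile of 1180 probes for olfactory and vomeronasal receptors, which lay between 300.4 and 314 signal units on the 6 arrays. By that measure 67.4% of the probes were at background in both tissues, and among the 9193 genes that were not, 18.9% were higher and 13.0% lower in heart. These shares are the background for every count of genes given below. Where a gene was at background on all 3 arrays of one tissue, the difference is given as a lower bound, the bright tissue's mean signal over the higher of background and the probe's own signal. Where only some arrays of a tissue were at background the fitted difference is given, and it then rests in part on signals that are not measurable. This holds for 2 of the 3 hearts for Car3, Casq1, Lbx1, Pdlim3, Tnni2 and Tpm2 and for 1 heart for Fos, Hk1, Ldb3, Nmrk2, Phkg1 and Tbc1d1. It also holds for 2 of the 3 skeletal muscles for Cp, Kcnq1, Myh7, Nkx2-5, Slc4a3 and Tbx20 and for 1 skeletal muscle for Gata6, Irx5, Myl2 and Tnnc1. For a few genes given with a bound, 1 array of the brighter tissue was at background too. This was 1 heart for Nppa and Myl7 and 1 skeletal muscle for Hoxa11 and Hoxd8. Their bounds rest in part on such a signal and are not strict minima. Signals of replicates 1, 2 and 3 are listed in that order, in normalised signal units that do not allow one probe to be set against another. Because whole tissue was sampled, fewer cells of a type and less RNA per cell cannot be told apart.

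**Figure D1:**
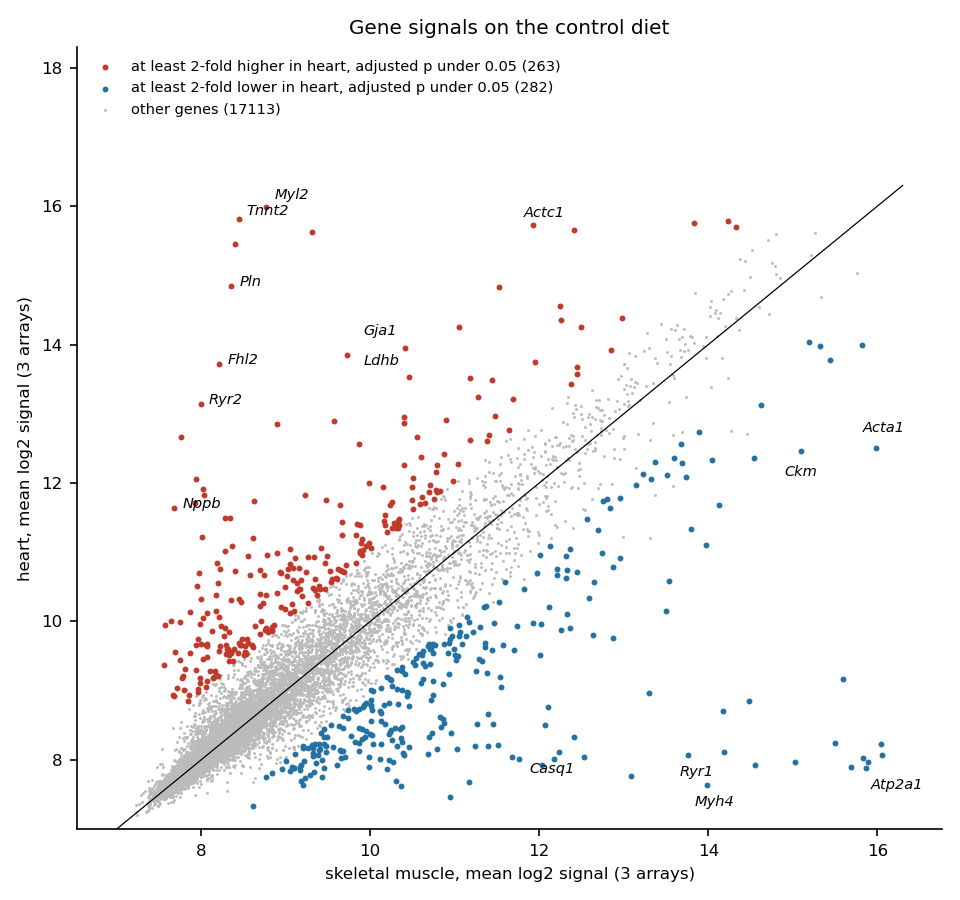
Mean log2 signal of 17658 genes in heart (vertical axis, 3 arrays) against skeletal muscle (horizontal axis, 3 arrays) on the control diet, with the line of equal signal. The 263 red genes were at least 2-fold higher and the 282 blue genes at least 2-fold lower in heart, and genes such as Tnnt2 or Atp2a1 spanned nearly the whole range of the array.

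The heart array of replicate 2 stood apart from the others. Its signals correlated with those of the other hearts at 0.936 and 0.939, whereas the other pair of hearts correlated at 0.986 and the skeletal muscles at 0.983 to 0.987 (Pearson's r across probes, which are not independent replicates). A total of 203 probes were at least 2-fold dimmer on it than on both other hearts and 10 were at least 2-fold brighter, against at most 6 for either of the other hearts. The study's methods mention a hybridization problem on 1 control and 1 high-iron heart array, which the labels do not identify. The authors left the probes that failed there out of their analyses of those 2 samples. The main fit here kept every probe on every array, so values of dim probes on this heart may include failed ones. Whether this heart was the affected control array was not tested. Among the high-iron hearts, replicate 1 had 212 probes at least 2-fold below both others, and 119 of these were among the 203 dim ones here. Represented by the brightest probe, 62 genes were low and 8 were high on this array. Examples of the low ones were Atp5l, a subunit of ATP synthase, with 23044, 586 and 24554 in heart against 22739, 18647 and 18045 in skeletal muscle, and Hopx, a cardiac homeodomain protein, with 4460.1, 328 and 5314 in heart against 369, 379.9 and 376 in skeletal muscle. The 8 high ones were Adipoq, Car3, Dnajb1, Egr1, Errfi1, Fasn, Scd1 and Ucp1. Several of these are genes of fat cells, such as the brown fat uncoupling protein Ucp1, which had 248, 2667 and 211 in heart and 237, 235 and 207 in skeletal muscle. When this array alone was left out and the remaining 2 hearts were compared with 3 skeletal muscles, 2571 probes were higher and 2169 lower in heart, 3974 of which were among the 4311 called with it. All 545 genes called at 2-fold or more were then called in the same direction. They had been chosen on arrays that this fit reused, so the count is no independent check. The genes turned in direction by this array include Atp5l (difference -1.51 with it and 0.27, adjusted p = 0.0836, without it) and Atp5pb, a stalk subunit of ATP synthase (-0.80 with it and 0.57, adjusted p = 4.44e-05, without it). Other values that moved without this array are given beside the results they touch.

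**Figure D2:**
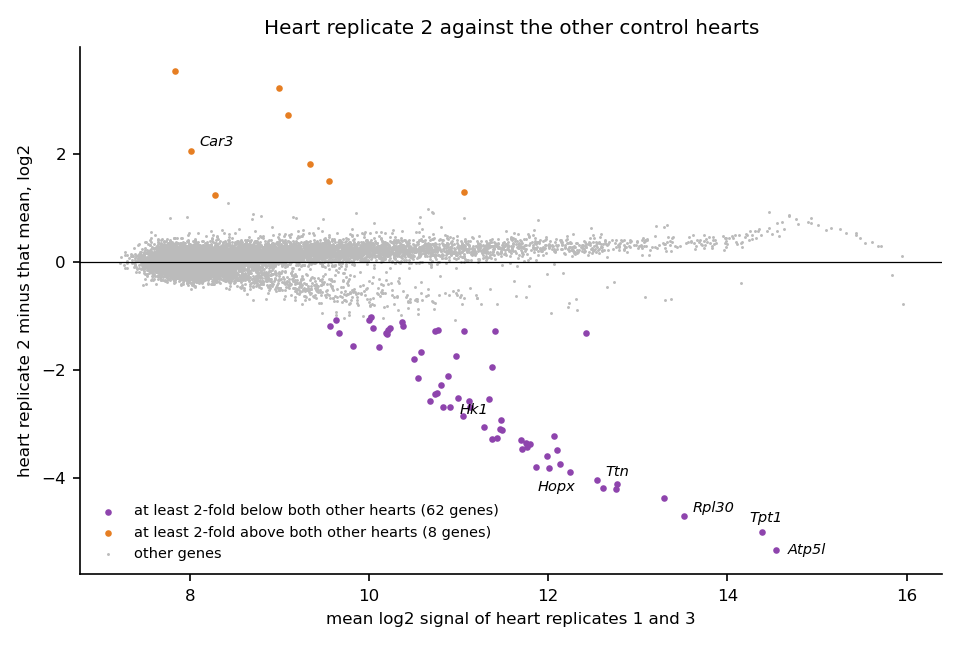
Difference between the heart array of replicate 2 and the mean of heart replicates 1 and 3 (vertical axis, log2) against that mean (horizontal axis, log2), 1 point per gene. The 62 purple genes, among them Hopx and Atp5l, lay at least 2-fold below both other hearts and the 8 orange genes at least 2-fold above.

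The labels were borne out by the marker genes of each muscle. All 9 measured cardiomyocyte markers were higher in heart, and their summed signal was 207940 to 259847 in heart and 4643 to 8265 in skeletal muscle. All 10 markers of fast skeletal fibres were lower in heart, with sums of 2535 to 3056 in heart and 465339 to 473764 in skeletal muscle. Tnni3, a cardiomyocyte marker on the list, was not analysed here. Markers of slow skeletal fibres are mostly genes that the ventricle uses as well, and 5 of 6 were higher in heart. Tnnt1, the slow skeletal troponin T, which the ventricle uses little, had 603, 685 and 681 in heart against 403, 363 and 562 in skeletal muscle (difference 0.59). None of the 7 lung, 7 thymus and 7 seminal vesicle markers measured was called by limma, or passed an unadjusted p below 0.05. Of the 8 liver markers Apoa1, a lipoprotein of plasma, was called (-0.66), with 3 at an unadjusted p below 0.05 and 2 called without heart replicate 2. Where a list below is said to hold no gene in a direction, at most 1 of its members had that direction at an unadjusted p below 0.05, unless another number is given.

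Many of the widest separations were between genes of the same family, and 6 promoters of such genes are shown here, 3 of cardiac genes and 3 of skeletal genes. Each sequence is the stretch of 250 bases before the transcription start from RefSeq (GRCm38.p6), written 5′ to 3′ on the strand of the gene. The capitals mark matches to motifs known from muscle promoters, namely the E-box CAGCTG bound by MyoD-type factors, the MEF2 site, the CArG box of serum response factor, CATTCC bound by TEAD factors, AGATAA bound by GATA factors, and TATAAA. All motifs were searched on both strands except TATAAA, which was searched on the strand of the gene only, and MEF2 sites, CArG boxes and TATAAA can overlap each other. The cardiac genes were Mybpc3 (chr2:91117894-91118143, plus strand), Myl3 (chr9:110763428-110763677, plus strand) and Actc1 (chr2:114052876-114053125, minus strand). The skeletal genes were Myh4 (chr11:67237562-67237811, plus strand), Mylpf (chr7:127211358-127211607, plus strand) and Acta1 (chr8:123894776-123895025, minus strand).
Mybpc3: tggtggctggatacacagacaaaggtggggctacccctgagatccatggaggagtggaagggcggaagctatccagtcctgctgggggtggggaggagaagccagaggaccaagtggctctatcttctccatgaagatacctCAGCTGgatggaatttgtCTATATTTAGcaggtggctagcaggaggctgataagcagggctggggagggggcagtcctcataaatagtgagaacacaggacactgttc
Myl3: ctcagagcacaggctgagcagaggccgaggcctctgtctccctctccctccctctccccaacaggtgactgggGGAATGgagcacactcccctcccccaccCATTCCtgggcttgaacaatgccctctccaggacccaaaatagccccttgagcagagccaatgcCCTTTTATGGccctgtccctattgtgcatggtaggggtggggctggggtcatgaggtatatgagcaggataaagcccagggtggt
Actc1: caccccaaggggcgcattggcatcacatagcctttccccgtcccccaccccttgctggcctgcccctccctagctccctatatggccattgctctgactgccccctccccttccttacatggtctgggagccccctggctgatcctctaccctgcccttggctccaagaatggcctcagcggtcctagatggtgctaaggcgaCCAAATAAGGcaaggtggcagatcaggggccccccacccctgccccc
Myh4: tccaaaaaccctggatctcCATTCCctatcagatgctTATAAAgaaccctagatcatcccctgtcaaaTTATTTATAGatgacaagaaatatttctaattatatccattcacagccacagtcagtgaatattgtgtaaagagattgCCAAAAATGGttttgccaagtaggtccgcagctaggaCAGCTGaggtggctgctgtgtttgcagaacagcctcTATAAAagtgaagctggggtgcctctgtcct
Mylpf: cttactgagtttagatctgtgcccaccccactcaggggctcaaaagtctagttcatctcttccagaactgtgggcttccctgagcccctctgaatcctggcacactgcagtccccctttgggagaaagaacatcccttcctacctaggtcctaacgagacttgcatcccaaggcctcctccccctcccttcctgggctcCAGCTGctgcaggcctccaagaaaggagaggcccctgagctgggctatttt
Acta1: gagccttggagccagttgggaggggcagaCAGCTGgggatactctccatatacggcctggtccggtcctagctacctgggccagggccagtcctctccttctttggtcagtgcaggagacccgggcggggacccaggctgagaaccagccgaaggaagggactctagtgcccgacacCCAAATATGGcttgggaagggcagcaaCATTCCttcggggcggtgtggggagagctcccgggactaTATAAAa
Mybpc3 held an E-box and a MEF2 site, Myl3 a pair of CATTCC motifs and a CArG box, and Actc1 a CArG box. Myh4 held a match to every motif except AGATAA, Mylpf held the E-box alone, and Acta1 held an E-box, a CArG box, a CATTCC motif and a TATAAA.

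Over all genes at least 2-fold apart, the motif with the widest gap in percentage points between the promoter sets was the E-box. CAGCTG was present in 36 of 278 promoters (12.9%) of 207 genes higher in heart and in 69 of 309 promoters (22.3%) of 226 genes lower in heart, against 12.4% of 17549 promoters of genes on the array and 13.0% of all 32851 promoters. MEF2 sites were found in 2.52% of the promoters of genes higher in heart and in 4.85% of those lower in heart, against 2.26% on the array and 2.92% of all. CArG boxes were found in 3.6% and AGATAA in 10.1% of the promoters of genes higher in heart, and in 2.59% and 8.74% of those lower in heart, against 1.23% and 8.29% on the array and 1.47% and 9.99% of all. CATTCC was present in 13.7% of the promoters of genes higher in heart and in 13.3% of those lower in heart, with 11.4% on the array and 12.6% of all. TATAAA was present in 4.68% of the promoters of genes higher in heart and in 5.83% of those lower in heart, with 6.65% on the array and 7.59% of all. The sets share promoters of genes with several start sites, and these shares are descriptions without a test. Among the genes of the cardiac and skeletal pairs below, AGATAA was present in 5 of 18 cardiac genes and 0 of 14 skeletal genes with a promoter sequence, and CAGCTG in 5 of 18 cardiac and 7 of 14 skeletal genes. A gene was counted here when any of its promoters held the motif, and some genes, such as Fhl2 and Myl2, had several. These counts are therefore not on the scale of the shares per promoter above. No share per gene over all genes on the array was computed, so the counts have no baseline. They are not read as a difference between cardiac and skeletal genes. MEF2 sites were present in 4 of the 18 cardiac and 1 of the 14 skeletal genes, the opposite order to that over all genes 2-fold apart. CATTCC was present in 5 cardiac and 5 skeletal genes, the CArG box in 3 cardiac and 3 skeletal genes and TATAAA in 1 cardiac and 3 skeletal genes of the same 18 and 14.

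Of 20 pairs of a cardiac and a skeletal gene with the same role, 17 had both genes measured. In 15 of these the cardiac gene was higher and the skeletal gene lower in heart. Singly, 17 of 18 cardiac genes were higher and 17 of 18 skeletal genes lower. The exceptions were Jph2, the cardiac junctophilin that holds the surface membrane close to the sarcoplasmic reticulum, with 851, 558 and 863 in heart and 605, 651 and 846 in skeletal muscle (adjusted p = 0.793), and Sln, an inhibitor of the calcium pump, which was at background in both tissues. Sln was set as the skeletal gene of its pair, although it also stands on the list of atrial myocyte markers. The other 3 pairs were not analysed here as pairs. The pairs were set up as known cardiac and skeletal genes, so that these counts describe them and are no test of a separation.

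**Figure D3:**
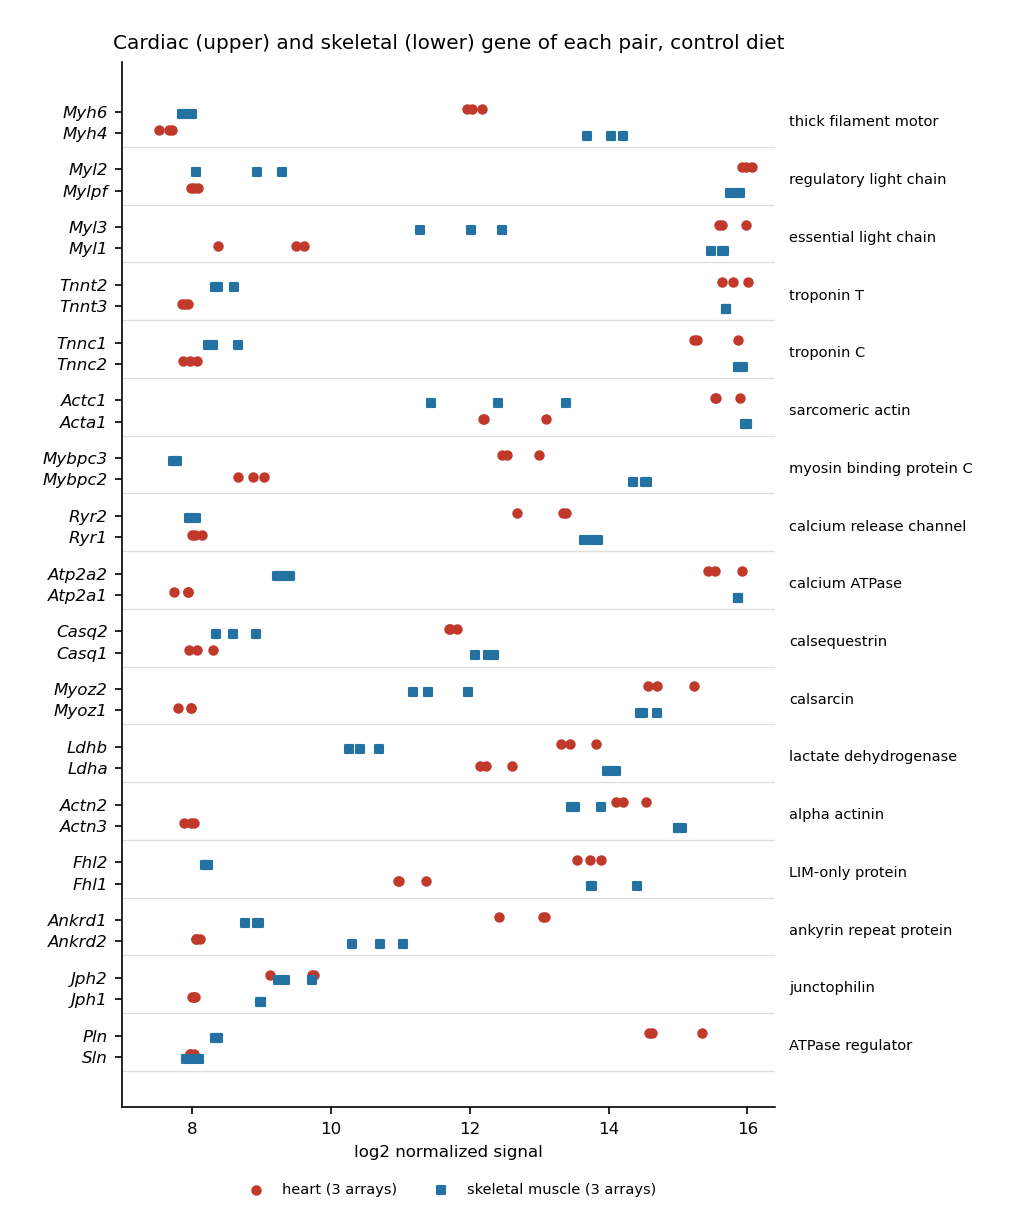
Log2 signal of the 3 heart arrays (red circles) and 3 skeletal muscle arrays (blue squares) for the 17 pairs with both genes measured, the cardiac gene above the skeletal gene, with the role at the right. The heart signals lay to the right of the skeletal muscle signals for the cardiac gene of each pair except Jph2, and to the left for the skeletal gene except Sln.

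The heavy chains of myosin, the motor of the thick filament, were higher in heart for some genes and lower for others. Myh6, the alpha heavy chain that dominates in the adult mouse ventricle, had 3973, 4176 and 4649 in heart and 250.3, 231 and 256 in skeletal muscle, at least 13.9-fold higher in heart (adjusted p = 1.92e-11). Myh7, the beta or slow heavy chain, had 1985, 3182 and 1403 in heart and 278, 293 and 372 in skeletal muscle (2.73 ± 0.202, SE). Conversely Myh4, the fastest heavy chain of type IIB fibres, had 210.4, 185 and 204 in heart, which is background, and 13282, 16769.8 and 18949 in skeletal muscle, at least 52.7-fold lower in heart (adjusted p = 6.36e-12). The IIX heavy chain gene Myh1 was at least 13.7-fold lower in heart. The perinatal heavy chain gene Myh8 was at least 4.41-fold lower in heart, with 1270.5, 1391 and 1397 in skeletal muscle. No array of a tissue overlapped the other tissue for any of these 5 genes.

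The light chains, which sit on the neck of myosin, were divided in the same way. Myl2, the ventricular regulatory light chain, had 62209, 68484 and 64424 in heart and 490.5, 266 and 632 in skeletal muscle (7.22 ± 0.186, SE, adjusted p = 3.24e-10). Myl3, the ventricular essential light chain, which slow fibres use as well, had 49194, 64424 and 50948 in heart and 4151, 2489 and 5656 in skeletal muscle (3.81). Mylpf, the fast regulatory light chain, had 261, 254 and 271 in heart and 54948, 58553 and 60770.4 in skeletal muscle, at least 189-fold lower in heart. All 3 skeletal muscles were thus near the upper end of the scale for Mylpf and all 3 hearts at background. Myl1, the fast essential light chain, had 727, 334 and 788 in heart against 51924, 50948 and 45718 in skeletal muscle (-6.42, and -6.09 without heart replicate 2, which was the lowest of the hearts). Myosin binding protein C, which tunes the speed of the cross-bridge, was represented by 3 genes. Mybpc3, the cardiac form, had 5656, 8190.4 and 5919 in heart and 219, 212 and 220.2 in skeletal muscle, at least 21.2-fold higher in heart. The fast form Mybpc2 differed by -5.62 and the slow skeletal form Mybpc1 was at least 28.3-fold lower in heart.

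In the thin filament, Tnnt2 had the largest difference of all genes that were higher in heart. This gene encodes cardiac troponin T, which ties the troponin complex to tropomyosin, and had 50948, 65661 and 56759 in heart and 324, 333 and 390.4 in skeletal muscle (7.37 ± 0.0911, SE, adjusted p = 5.35e-13). Tnnc1, the calcium sensor of heart and slow fibres, had 39487, 59543 and 38545 in heart and 299, 318 and 406 in skeletal muscle (7.05). Each of the fast skeletal troponins went the other way. Tnni2, the fast inhibitory subunit, had 298, 284 and 322 in heart and 66719, 68484 and 66719 in skeletal muscle (-7.81). Tnnt3 was at least 172-fold and Tnnc2 at least 198-fold lower in heart, both with adjusted p = 8.35e-14. Tpm2, the beta tropomyosin, had 296, 327 and 290.0 in heart and 44382, 44382 and 50948 in skeletal muscle (-7.26). The sarcomeric actins were well above background in both tissues. Actc1, cardiac actin, had 47946, 60770.4 and 47376 in heart and 10769.9, 2773 and 5421 in skeletal muscle (3.25 ± 0.293, SE), and its spread among the skeletal muscles was wide. Acta1, skeletal actin, had 8794, 4693 and 4722 in heart and 63776, 65005 and 65005 in skeletal muscle (-3.48 ± 0.15, SE). Over the lists, 8 of 9 cardiac filament genes were higher in heart and none lower (median 4.12), and all 10 fast filament genes were lower (median -7.11).

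The Z-disc, which anchors the thin filaments, held genes of either direction. Of 33 genes of the Z-disc, the M-band and titin's partners, 8 were higher and 16 lower in heart, with a median of -0.37. Fhl2, a LIM protein of the cardiac Z-disc and N2B titin, had 11976, 15145 and 13552 in heart and 302, 291 and 299.9 in skeletal muscle, at least 44.1-fold higher in heart. Ankrd1, a stretch-responsive ankyrin repeat protein, had 8533, 8725 and 5516 in heart and 489.6, 437 and 501 in skeletal muscle (3.97). Csrp3, the muscle LIM protein, and Myoz2, the cardiac and slow calsarcin that restrains calcineurin, differed by 3.21 and 3.31. Actn3, the fast-fibre alpha-actinin, had 261, 236 and 254 in heart and 34161, 32858 and 32858 in skeletal muscle, at least 109-fold lower in heart, while its widely used relative Actn2 was modestly higher in heart (0.66). The fast calsarcin Myoz1 was at least 78.3-fold and the ankyrin repeat protein Ankrd2 at least 5.37-fold lower in heart. Tmod4, which caps the pointed ends of skeletal thin filaments, differed by -3.35, Pdlim3, an alpha-actinin-binding protein, by -3.21, Fhl1 by -2.86 and the thin-filament scaffold Klhl41 by -2.12. Synm, an intermediate filament protein that links Z-discs to the membrane, had 508, 534 and 461 in heart and 10332, 10769.9 and 9205 in skeletal muscle (-4.33).

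Several Z-disc genes depended on the probe or on the second heart array. Ttn, which encodes the giant spring titin, had 6119.6, 365 and 5872 in heart and 10006, 11139.9 and 9434 in skeletal muscle with its brightest probe, a difference of -2.11 that did not pass (adjusted p = 0.0536). Without heart replicate 2 the difference was -0.76 (adjusted p = 6.44e-07), and another 3 titin probes had differences of -0.96 to -0.92 that passed with it. The probe with -0.957 was also dim on that array, with 1782, 889 and 2060 in heart. A further titin probe, at background in both tissues, was called higher in heart (0.27, adjusted p = 0.0418). Ldb3, which encodes the Z-disc protein cypher, had 2816, 288 and 2706 in heart and 6844, 5554 and 6174 in skeletal muscle (-2.25, and -1.16 without that array), but a second probe was higher in heart by 1.07. Tpm3, slow tropomyosin, was lower in heart at its brightest probe (-1.10) and higher at another (0.42). In all, 12 genes had probes called in opposite directions, which besides Ttn, Ldb3 and Tpm3 were Asph, Atp5pb, Azi2, Cyhr1, Pdgfd, Tcf25, Tmem65, Ubxn6 and Zc3hav1.

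Calcium handling was likewise divided between genes of the same family. Among 24 genes of calcium release and uptake 6 were higher and 11 lower in heart. Ryr2, the cardiac calcium release channel, had 10443, 6543 and 10673 in heart and 266, 248 and 250.4 in skeletal muscle, at least 29.4-fold higher in heart. Ryr1, the skeletal channel, had 263, 284 and 257 in heart and 12852, 14751 and 13987 in skeletal muscle, at least 45.1-fold lower in heart. The pumps that return calcium to the sarcoplasmic reticulum followed the same division. Atp2a2, the cardiac and slow pump SERCA2, had 47376, 62209 and 44382 in heart and 600.5, 623 and 679 in skeletal muscle (6.32 ± 0.104, SE). Atp2a1, the fast pump SERCA1, had 247, 215 and 247 in heart and 59543, 59919.8 and 59919.8 in skeletal muscle, at least 195-fold lower in heart, with adjusted p = 8.35e-14. Pln, phospholamban, the brake on SERCA2 that adrenergic signals release, had 24554, 41541 and 25311 in heart and 332, 326 and 323 in skeletal muscle (6.50). Of the calcium-storing calsequestrins, Casq2 had 3330.5, 3609 and 3379 in heart and 326, 385 and 485 in skeletal muscle (3.13). Casq1 had 269.6, 315 and 249.7 in heart and 4333, 4900.3 and 5209.9 in skeletal muscle (-4.12). Pvalb, parvalbumin, the cytosolic calcium buffer that speeds the relaxation of fast fibres, had 289, 290.1 and 232 in heart and 68484, 66719 and 68484 in skeletal muscle, at least 221-fold lower in heart.

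Genes of calcium entry and of the skeletal triad completed the group. Slc8a1, the sodium-calcium exchanger that clears calcium from the cardiac cell after each beat, had 2099, 2649 and 2360.1 in heart and 408, 412 and 362 in skeletal muscle (2.58), and S100a1, which enhances the calcium cycle, differed by 2.05. Cacna1c, the pore of the cardiac L-type channel, had 996, 1335 and 1076 in heart and 248, 223 and 232 in skeletal muscle, at least 3.69-fold higher in heart, and its beta subunit Cacnb2 was at least 1.85-fold higher. The skeletal channel subunits Cacng1 (-1.96) and Cacnb1 (-1.63) were lower in heart. Sypl2, or mitsugumin-29 of the triad, was at least 19.4-fold lower in heart, Stac3, which couples the voltage sensor to Ryr1, at least 4.04-fold, and Jsrp1, a triad protein that binds calsequestrin, at least 3.30-fold. The junctophilin Jph1 was at least 1.66-fold lower.

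Cardiomyocytes are joined end to end by intercalated discs, which hold the cells together and pass the impulse on. Of 16 genes of the intercalated disc and gap junctions, 9 were higher and 1 lower in heart (median 0.48). Gja1, connexin 43, which carries the impulse between cardiomyocytes, had 14359, 18479 and 15145 in heart and 1522, 1418 and 1174 in skeletal muscle (3.54). Ctnna1, alpha-catenin of the adherens junction, had 7004, 9511 and 7482 in heart and 1253, 1378 and 1415 in skeletal muscle (2.56). The desmosomal genes Pkp2 and Dsg2 were at least 3.35-fold and 3.32-fold higher in heart, the membrane protein gene Popdc2 differed by 2.27 and plakoglobin, Jup, by 1.02. The gene lower in heart was Xirp2 (-0.79), an actin-binding repeat protein.

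Of 24 potassium and chloride channel genes, 10 were higher and 4 lower in heart. Kcnk3, a background potassium channel, had 1465, 1528 and 1383 in heart and 223, 270.3 and 249.9 in skeletal muscle, at least 4.77-fold higher in heart. Kcnq1, which carries a slow repolarising current, differed by 1.97, and the pacemaker channel gene Hcn2 was at least 2.03-fold higher. Kcnc4 and Kcnc1, voltage-gated potassium channels, were at least 15.1-fold and 4.29-fold lower in heart, and Kcnc4 had 4959, 4714 and 4261 in skeletal muscle. At the neuromuscular junction 2 of 16 genes were higher and 4 lower in heart. Among the lower ones were the acetylcholine receptor subunits Chrna1 (at least 2.67-fold), Chrnb1 (at least 1.45-fold) and Chrne (at least 1.24-fold), and their clustering protein Rapsn (-0.43). The pair higher in heart was Prkar1a (1.23), a regulatory subunit of protein kinase A used by most cells, and Agrn (1.18), a matrix protein of many basement membranes. In the signalling of the autonomic nerves, 7 of 17 genes were higher and 3 lower in heart. Chrm2, the muscarinic receptor through which the vagus slows the heart, was at least 1.94-fold higher, as was the adenylyl cyclase gene Adcy5 (at least 2.07-fold), and Adcy6 differed by 1.20. The inhibitory G protein gene Gnai2 had 2600.1, 689 and 2699.5 in heart and 1421, 1289.9 and 1286 in skeletal muscle, a difference that passed only without heart replicate 2 (1.00).

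Natriuretic peptides are hormones that the heart releases on stretch. Nppb, which encodes B-type natriuretic peptide, had 2947, 3079 and 3531 in heart and 214, 209.9 and 193 in skeletal muscle, at least 10.4-fold higher in heart. Corin, the protease that activates the natriuretic propeptides, was at least 11.0-fold higher, with 3179, 3925 and 3043 in heart. Nppa, atrial natriuretic peptide, had only 464, 266 and 344 in heart against 269, 249 and 251 in skeletal muscle, at least 1.14-fold higher (adjusted p = 0.025). It was brightest on heart replicate 1. Without the mouse as a block its adjusted p was 0.101, and without replicate 1 the difference was 0.28. The same array was highest for the atrial light chains Myl7, with 1272, 549.8 and 281 in heart and 239, 267 and 253 in skeletal muscle, and Myl4, with 2679, 1139 and 476 in heart and 907, 834 and 1019.5 in skeletal muscle. Myl7 was at least 1.90-fold higher in heart (adjusted p = 0.0203, or 0.0625 without the block), with a fitted difference of 0.62 without replicate 1. Of 11 atrial myocyte markers 3 were higher in heart, and their summed signal was 4062 to 8113 in heart and 4430 to 4832 in skeletal muscle. Agtr1a, the angiotensin receptor, differed by 1.96.

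Transcription factors of either muscle were compared next. Of 26 cardiac factors 14 were higher and 2 lower in heart (median 0.32). Gata6 had 1954, 2682 and 1973 in heart and 349, 348 and 295 in skeletal muscle (2.72), and Gata4 had 587, 671 and 652 in heart and 219, 229.9 and 224 in skeletal muscle, at least 2.08-fold higher in heart. Both are zinc finger factors needed to form the heart. Myocd, the myocardin co-activator of serum response factor, was at least 4.20-fold higher in heart. Nkx2-5, the cardiac homeobox factor, had 499.8, 563 and 509 in heart and 312, 289 and 287 in skeletal muscle (0.82). The T-box factor Tbx20 differed by 1.02 and the homeobox factor Irx5 by 1.23. Hopx differed by 2.40 (adjusted p = 0.0172, or 0.0674 without the mouse as a block), and by 3.74 without heart replicate 2. Mef2c, a factor that serves both muscles and stands on both lists, had 898, 1071 and 869 in heart and 4714, 5327 and 4669 in skeletal muscle (-2.38).

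None of 22 skeletal muscle factors was higher in heart and 6 were lower, or 10 without heart replicate 2, while 10 were at background in both tissues. Myf6, the myogenic factor that persists in adult fibres, had 269.5, 304 and 285 in heart and 1816, 1869.8 and 1628 in skeletal muscle, at least 5.76-fold lower in heart. Vgll2, a muscle co-factor of TEAD proteins, was at least 3.89-fold lower. Lbx1, which marks muscle precursors that migrate to the limb, had 277, 271 and 327 in heart and 429.7, 443 and 456 in skeletal muscle (-0.61). Nfix, which switches muscle from its fetal to its adult program, differed by -0.63. Hox genes, which give a tissue its position along the body, showed the same direction. Of 38 Hox genes 25 were at background in both tissues, 6 were lower in heart and none was higher. Hoxc10, a gene of the hindlimb, had 295, 309 and 296 in heart and 722, 744 and 643 in skeletal muscle, at least 2.29-fold lower in heart. The bounds for its neighbours were 2.24-fold for Hoxc9 and 1.59-fold for Hoxc6, and on the other clusters 1.34-fold for Hoxa7, 1.05-fold for Hoxa11 and 1.01-fold for Hoxd8.

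Genes of energy metabolism divided by pathway. The medians of fatty acid oxidation, ketone use, the tricarboxylic acid cycle and the respiratory complexes lay between 0.36 and 0.81, and those of glycolysis and glycogen at -0.54 and -0.36, against 0.0083 over all genes. Over the 9193 genes above background in at least 1 tissue the median was 0.024. Of 49 genes of fatty acid uptake and oxidation 30 were higher and 3 lower in heart. Lpl, lipoprotein lipase, which releases fatty acids from blood lipoproteins, had 20676, 32109 and 21182 in heart and 4412, 4669 and 5602 in skeletal muscle (2.31). Fabp3, which carries fatty acids inside the cell, had 52698, 65005 and 52698 in heart and 19235, 16852 and 22158 in skeletal muscle (1.55). Acadm, the medium-chain acyl-CoA dehydrogenase, had 4529, 5822 and 4488 in heart and 1033, 1327 and 1788 in skeletal muscle (1.86). The thiolase gene Acaa2 differed by 1.75, the carnitine transferase gene Cpt2 by 1.29, and the electron transfer genes Etfdh and Etfb by 1.79 and 1.52. The 3 genes lower in heart were the fatty acid activating Acsl4 (-0.76) and Acsl6 (at least 1.27-fold) and the nuclear receptor gene Ppard (-0.36, but -0.19, adjusted p = 0.212, without heart replicate 2, and adjusted p = 0.109 without the block). For ketone bodies, Bdh1 and Oxct1, the first steps of their use, differed by 1.48 and 1.13, and 3 of 4 genes were higher in heart.

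In the tricarboxylic acid cycle 13 of 21 genes were higher and 2 lower in heart. Idh2, mitochondrial isocitrate dehydrogenase, had 10134, 13499 and 11816 in heart and 1916, 2506 and 2605 in skeletal muscle (2.34), and Ogdh, of the step after it, differed by 1.48. The pair lower in heart was Idh3a (-0.41) and Sucla2 (-0.32, adjusted p = 0.0495, or 0.0619 without the block). The respiratory chain passes electrons to oxygen and drives ATP synthase. Of 34 complex I genes 19 were higher and none lower, of 26 genes of complexes III and IV and cytochrome c 13 were higher and none lower, and of 16 ATP synthase genes 7 were higher and none lower. The medians were 0.37, 0.42 and 0.46, and without heart replicate 2 they were 0.30, 0.30 and 0.34. Cox8a and Cox6a1, subunits of cytochrome oxidase in their widely expressed forms, differed most among the genes of complexes III and IV, by 1.78 and 1.45. Ndufb6 and Ndufv2 of complex I were dim on heart replicate 2. Ndufv2 differed by -0.73 (adjusted p = 0.53) with that array and by 0.35 (adjusted p = 0.00656) without it. Ndufb6 had 6797, 373 and 7046 in heart and 5447, 5381 and 5404 in skeletal muscle, a difference of -1.05 with that array and 0.35 without it. Atpif1, the inhibitor of ATP synthase, had 7152, 8265 and 7004 in heart and 1418, 1284 and 1365 in skeletal muscle (2.46). At the entry of pyruvate, 4 of 11 pyruvate dehydrogenase genes were higher and 1 lower in heart, but only 2 higher and none lower without heart replicate 2. The lower one, the kinase gene Pdk4, had 10006, 5300.2 and 4662 in heart and 13552, 9141 and 8411 in skeletal muscle (-0.69, but -0.57, adjusted p = 0.0875, without that array, and adjusted p = 0.112 without the block).

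Of 27 glycolysis genes 4 were higher and 15 lower in heart. Ldha, which makes lactate, had 4831, 6245 and 4563 in heart and 16769.8, 17736 and 16162 in skeletal muscle (-1.71). Ldhb, the form favoured in tissues that burn lactate, had 11139.9, 14446 and 10201 in heart and 1227, 1376 and 1660.4 in skeletal muscle (3.06). Phosphofructokinase likewise split into Pfkm, the muscle form (-1.34), and Pfkl, the liver form (2.19). Hk1, the hexokinase of tissues with steady glucose use, had 2376, 300.4 and 2637 in heart and 449, 406 and 424 in skeletal muscle (1.53, adjusted p = 0.0452, or 0.171 without the block, and 2.59 without heart replicate 2). Down the pathway Aldoa (-1.83), Tpi1 (-1.49), Pgk1 (-1.07), Pgam2 (-1.16), Eno3 (-1.66) and Pkm (-1.40) were all lower in heart. Gpd1, which regenerates NAD by reducing the glycolytic intermediate dihydroxyacetone phosphate, had 2253, 3786 and 2034 in heart and 15428, 14155 and 13282 in skeletal muscle (-2.46).

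Glycogen genes followed, with 2 of 20 higher and 10 lower in heart. Pygm, the muscle phosphorylase that breaks glycogen down, had 937, 1113 and 969 in heart and 4089.6, 4261 and 4163 in skeletal muscle (-2.06). Pygb, the brain form, had 3306, 4322 and 3313 in heart and 259, 254 and 273 in skeletal muscle, at least 11.8-fold higher in heart. The phosphorylase kinase subunits Phka1 (-2.75), Phkg1 (-2.37) and Phkb (-1.83) and the synthase Gys1 (-1.78) were lower in heart. Among genes that move phosphate between ATP, creatine and adenylates, 5 of 14 were higher and 4 lower. Ckm, muscle creatine kinase, had 5579.8, 6190.0 and 5268 in heart and 35934, 34161 and 35239 in skeletal muscle (-2.63), and Ckb, the brain form, differed by 1.42. Ampd1, the deaminase that removes AMP in working fibres, had 292, 279 and 259 in heart and 19573, 19062 and 17144 in skeletal muscle, at least 60.5-fold lower in heart. The mitochondrial ADP/ATP carrier gene Slc25a5 differed by 2.01.

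**Figure D4:**
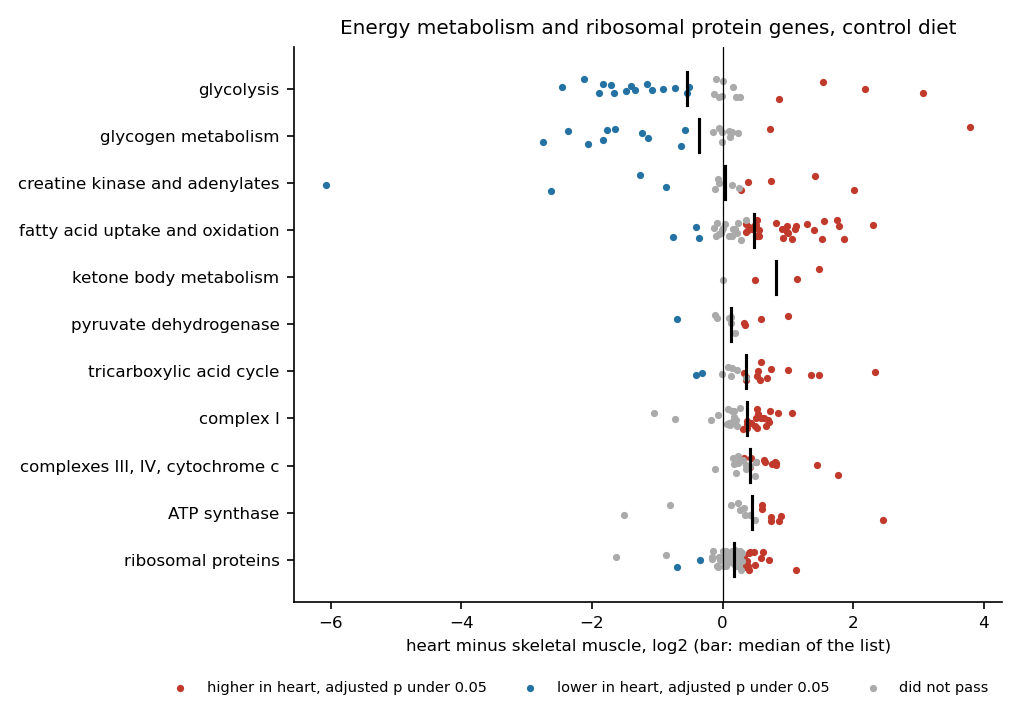
Log2 difference, heart minus skeletal muscle, for each gene of 10 lists of energy metabolism and of the ribosomal proteins, with the median of each list as a black bar. Red genes were higher and blue genes lower in heart by limma (adjusted p below 0.05), and the medians of glycolysis (-0.54) and glycogen (-0.36) lay left of 0 whereas those of fatty acid oxidation (0.48) and the respiratory complexes (0.37 to 0.46) lay right of it.

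Genes of oxygen handling and antioxidant defence had most of their called members higher in heart, 7 of 12 against 1 lower for the first group. Mb, myoglobin, which stores oxygen in the cell, differed by 0.85. Of 24 antioxidant genes 12 were higher and 2 lower, or 11 and 4 without heart replicate 2, among the higher ones Gsta4, which detoxifies products of lipid peroxidation (1.65), Prdx2 (1.23) and the mitochondrial superoxide dismutase Sod2 (0.94). Txnip, the inhibitor of thioredoxin, had 3561, 2600.1 and 3498 in heart and 7209.9, 8190.4 and 6685 in skeletal muscle (-1.20). Car3, the carbonic anhydrase of slow fibres and fat cells, had 295, 1081 and 226 in heart and 16073, 23044 and 17248 in skeletal muscle (-5.48). Without heart replicate 2, the only heart with a signal above background, Car3 was at least 61.2-fold lower in heart. Hba-a1, alpha globin of red cells, had 65661, 49194 and 51924 in heart and 11976, 17446 and 14648 in skeletal muscle (1.93), and 4 of 6 erythroid markers were higher in heart, with sums of 51414 to 70541 in heart and 13699 to 19226 in skeletal muscle. The part of blood in the results above was not tested.

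Among 35 genes of iron metabolism and hemojuvelin signalling, which the study was designed to follow, 8 were higher and 4 lower in heart on the control diet (median 0.07). Hjv, hemojuvelin, the BMP co-receptor that in liver controls hepcidin, had 5933, 6769 and 5579.8 in heart and 13529, 12852 and 12998 in skeletal muscle (-1.11 ± 0.082, SE, adjusted p = 2.75e-06). The tissues did not overlap. Neo1, neogenin, to which hemojuvelin binds, was higher in heart (0.41). Tfrc, the transferrin receptor that brings iron into cells, had 968, 869.5 and 1159 in heart and 1889, 1643 and 2376 in skeletal muscle (-0.97). The iron exporter gene Slc40a1 (-0.63) and the divalent metal transporter gene Slc11a2 (-0.45) were also lower in heart. Fth1 and Ftl1, the subunits of the iron store ferritin, were higher in heart (1.00 and 0.51), as was the ferroxidase gene Cp (0.81).

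Other groups had members in both directions. Of 24 heat shock genes 12 were higher and 2 lower in heart, or 11 and 4 without heart replicate 2, led by Hspb7, a small chaperone of heart (1.97), and Hspb3, a small chaperone of skeletal muscle (-1.20). The median was 0.32, and 0.16 without heart replicate 2. Hspb6 had 6223, 346 and 6343 in heart and 8794, 6732 and 9029.9 in skeletal muscle, a difference of -1.76 (adjusted p = 0.0747) with that array and -0.37 (adjusted p = 0.0203) without it. In muscle growth and atrophy the ubiquitin ligase Fbxo32 (-1.13), the growth factor binding protein Igfbp5 (-1.54) and the protease Capn3 (at least 2.28-fold) were lower in heart, and the stress-induced mTORC1 inhibitor Sesn1 (1.69) and the autophagy protein Map1lc3a (1.44) were higher. Ribosomal protein genes were higher in 14 and lower in 2 of 59 cases (median 0.18), or in 12 and 5 without heart replicate 2 (median 0.10). Rpl3 differed by 1.12, whereas its striated muscle paralog Rpl3l was lower in heart (-0.70). Immediate early genes, which respond within minutes to stimuli, were higher in 2 and lower in 3 of 23 cases, or in 1 and 9 without heart replicate 2. That array was the brightest heart for Egr1, which differed by -0.43 (adjusted p = 0.597) with it and by -1.35 (adjusted p = 0.000948) without it (542, 3614 and 549 in heart and 1713, 2239 and 679 in skeletal muscle). Of 17 clock genes 1 was higher and 6 lower, among them Tef (-1.25) and Rora (-1.10).

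Genes often used for normalisation also differed. Actb, cytoplasmic beta actin, had 5355, 5851 and 4636 in heart and 23044, 23754 and 24554 in skeletal muscle (-2.18). Gapdh differed by -0.73, Pgk1 by -1.07, Hprt by 0.77 and B2m by 0.83. Of 11 such genes 3 were higher and 4 lower in heart.

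Markers of cells other than muscle were compared in the same way, since both samples were whole tissue. Of 18 endothelial markers 11 were higher and 1 lower in heart (median 0.49), with sums of 27475 to 31996 in heart and 23965 to 26290 in skeletal muscle. Emcn, endomucin of capillaries and veins, differed by 0.90 and Pecam1, an adhesion molecule of all endothelium, by 0.63, while the water channel gene Aqp1 was lower (-0.47). Of 13 macrophage markers 7 were higher and 1 lower, among them Lyz2 (1.02) and the complement gene C1qa (0.69). Markers of the epicardium and mesothelium were higher in heart in 3 of 10 cases and lower in none, and 6 were at background in both tissues. Wt1, a factor of the epicardium, was at least 1.58-fold higher in heart. Endocardium markers went mostly the other way, with 1 of 7 higher and 3 lower in heart (median -0.08). Conduction system markers were higher in heart in 2 of 8 cases and lower in none. Fibroblast markers were higher in 2 and lower in 3 of 13 cases. Of 10 tendon markers 6 were lower in heart and none higher. Tnmd, tenomodulin, which marks tendon cells, had 288, 297 and 289.6 in heart and 814, 706 and 746 in skeletal muscle, at least 2.46-fold lower in heart, and Kera, a small proteoglycan, was at least 1.95-fold lower. Col1a1 had 496, 626 and 449 in heart and 1498, 1019.5 and 1365 in skeletal muscle (-1.30), whereas the basement membrane collagens Col4a1 (0.59) and Col4a2 (0.76) were higher in heart. Among 12 markers of Schwann cells and nerve only 1 was called (median -0.10). This was Mbp, the myelin basic protein of nerve sheaths, at least 1.93-fold lower in heart. None of 13 neutrophil markers was called by limma, with 3 higher and 1 lower at an unadjusted p below 0.05, and 1 was called higher without heart replicate 2.

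Fat cell genes were read in each heart, since heart replicate 2 stood out for several of them. Of 9 brown adipocyte markers 4 were higher in heart, with sums of 67729 to 106064 in heart and 50535 to 51659 in skeletal muscle, and heart replicate 2 was the highest. Most of these sums came from Cox7a1 (mean 47392 in heart and 26831 in skeletal muscle) and Cox8b (29156 and 21984.5). Both are also counted among the genes of complexes III and IV above, so the sums are not a measure of brown fat. Without heart replicate 2, 4 markers were higher and 1 lower, and the median was 0.12 instead of 0.54. Cidea, a lipid droplet protein, had 916, 1261 and 849 in heart and 248, 272 and 244 in skeletal muscle, at least 3.25-fold higher in heart. It was bright on all 3 hearts. Adipoq, adiponectin of white fat, had 335, 735 and 291 in heart and 464, 589 and 305 in skeletal muscle (adjusted p = 0.879). Scd1, a fatty acid desaturase, had 536, 4776 and 486 in heart and 876, 1126 and 694 in skeletal muscle, a difference of 0.29 (adjusted p = 0.836) with and -0.80 (adjusted p = 8.7e-05) without heart replicate 2. That array lay above all skeletal muscles and the other hearts lay below them. The part of fat cells in the differences on this array was not tested.

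The tissue difference was then read in the 3 mice on the high-iron diet, whose arrays did not enter the choice of the genes at 2-fold or more. Of the 545 genes at least 2-fold apart on the control diet, 543 had the same direction in those mice and 538 were called in it, and over the 769 probes at 2-fold or more the shares were 99.3% and 98.0%. The genes not called again were Ccnd2, Egr3, Fndc5, Fos, Hbb-bs, Myl7 and Pcp4l1. The dim probes of high-iron heart replicate 1 overlapped those of control heart replicate 2, and for such probes the high-iron mice were not an independent reading. Of the 545 genes 3 were dim on both arrays and 526 on neither, and 523 of the 526 were called in the same direction. Without high-iron heart replicate 1, as an unpaired comparison chosen after seeing the data, 541 of the 545 were called in the same direction, the others being Egr3, Fos, Myl7 and Slc25a25. Myl7 differed by 2.18 on the high-iron diet with that array and by 0.15 without it. Fos, an immediate early gene, differed by -1.37 on the control diet and by 0.28 on the high-iron diet. Acta1 differed by -3.48 on the control diet and by -4.78 on the high-iron diet. In a test of whether the tissue difference itself varied with diet, over all 12 arrays with limma, no probe passed (1404 probes at an unadjusted p below 0.05, smallest adjusted p = 0.0985). Without control heart replicate 2 and high-iron heart replicate 1, unpaired, 6 probes passed (smallest adjusted p = 0.00355), which were probes of Acta1, Fos, Mettl21c and Slc25a25 and 2 without a gene name. There the tissue difference on the high-iron diet minus that on the control diet was -1.54 for Acta1 and 1.88 for Fos.

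**Figure D5:**
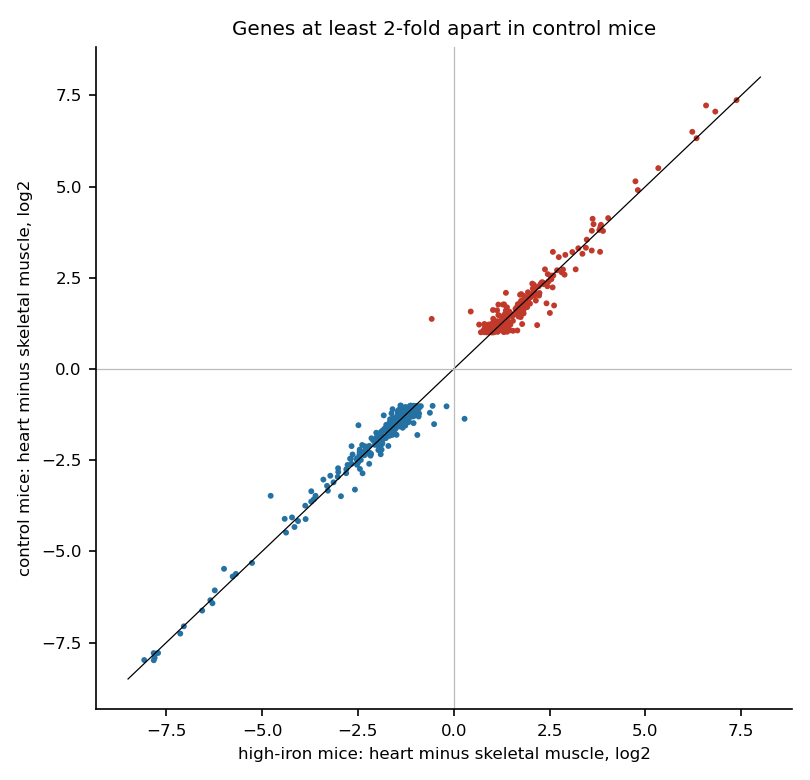
Log2 difference, heart minus skeletal muscle, in control mice (vertical axis) against high-iron mice (horizontal axis) for the 545 genes at least 2-fold apart in control mice, with the line of equal difference. Of these genes, 543 lay in the quadrants of equal sign, red for genes higher and blue for genes lower in heart.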

How the data were processed

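Total RNA was labelled and hybridised to Illumina Sentrix Mouse-6 BeadChips, 1 array per sample on 2 chips whose layout the sources used here do not give. The deposited sample files hold probe intensity values that the authors exported from BeadStudio without normalization. An intensity table that they quantile normalized with Inforsense KDE was deposited too and was used as an alternative. The array medians before normalization were 337.2, 282.5 and 188 in heart and 281.4, 260.1 and 192.1 in skeletal muscle. Detection p-values were not used. Precision was limited by the 3 arrays per tissue.

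The 6 control arrays were quantile normalised together and set on the log2 scale without an offset. Tissues were compared with limma 3.58.1 in R 4.3.3 (lmFit and eBayes, two-sided, Benjamini-Hochberg over 46133 probes), with the mouse as a fixed block because the methods describe heart and muscle specimens of the same mice. The deviations of heart and skeletal muscle arrays from their tissue means correlated at 0.0998, 0.0265 and 0.0964 for the same number. For different numbers the correlations were -0.0831 to -0.0105. Values this near 0 say little on whether the samples came from the same mouse. The mice are separate animals, as the labels call the samples biological replicates. Probes were named from the platform annotation (29542 with 1 symbol, 11 with several, which were left unnamed, 16580 with none), and no symbol was updated. A gene was represented by its probe of highest mean log2 signal, and 7477 genes had several probes. Background and lower bounds are defined above. Of 1107 entries on 61 gene lists 1012 were measured, and lists are described by counts and medians with no set test. The members and lists were chosen with earlier results of these data known. Named genes were both genes of every isoform pair, the 20 largest and 20 smallest differences with non-overlapping arrays, and from each list up to 8 called members of largest difference and up to 4 members not called, brightest first (517 genes). A further 50 genes were named after their values were seen. Acsl4, Hk1, Ldb3, Ndufb6, Pfkm, Ppard, Slc8a1 and Sucla2 are examples. Promoter sequences were taken from RefSeq, with no genome used, and no build is given in the sources used here for the arrays. The fit was tested on simulated data with known changes. Alternatives covered the block, normalization, offset, dim probes, prior, arrays in the fit and each replicate left out. Leaving out the heart array of replicate 2 alone, high-iron heart replicate 1 alone, or both, as unpaired comparisons, was added after seeing the data.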

Additional observations from a re-analysis of the deposited data

How the results depend on the processing

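The counts over all probes stayed within 1.5 times under every alternative. Leaving out 1 mouse at a time gave 1737 to 2686 probes higher and 1337 to 2236 lower in heart, and 355 to 386 and 405 to 486 at 2-fold or more. Of the 545 genes at 2-fold or more, 541, 545 and 543 were called in the same direction without replicates 1, 2 and 3. Each of these fits reused arrays that had served to choose the 545 genes, so the counts are no independent check. Without replicate 2 the estimated prior gave all probes a common variance, and a call then followed the size of the difference alone. Without the replicate block, 2307 probes were higher and 1818 lower, 4043 of them shared with the paired fit. Scaling each array to one median instead of quantile normalization gave 2124 higher and 2087 lower (50.4% of calls higher, against 55.9%) and moved the median difference of all probes by less than 0.1, and 285 and 479 at 2-fold or more, and 1 probe then passed the test of a tissue difference that varies with diet (smallest adjusted p = 0.0402), as did 6 probes without control heart replicate 2 and high-iron heart replicate 1. The share of probes at 2-fold or more that were called in the same direction in high-iron mice was 98.0%, and 99.2% with high-iron heart replicate 1 alone or both of these arrays left out. Of 360 named genes that passed, 313 passed in every alternative that gave them a value. Without the replicate block 14 named genes lost their call, and Hk1, Hopx, Myl7, Nppa, Pdk4, Ppard and Sucla2 are given above with that value. A trended and robust prior took the call from 13, among them Actc1, Car3, Fos, Hk1, Hopx, Ldb3, Myh7 and Myl7, with the differences unchanged, and leaving out replicate 1 from 36, among them Actn2, Gapdh, Idh3a and Slc11a2. The cause was not tested. The direction turned, with a call under the alternative, for 4 of the named genes, none of which passed with all arrays. These were Scd1 (0.29 with all arrays, -0.61 without replicate 2 of both tissues, -0.80 without that heart alone, 0.78 without replicate 1), Ndufb6 (-1.05, 0.34, 0.35 and -1.75 in the same order), Ndufv2 (-0.73, 0.34, 0.35 and -1.27) and Atp5pb (-0.80, 0.56, 0.57 and -1.58). Atp5l turned as well, but passed in no direction without that array (0.23 without replicate 2 of both tissues).

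Signals at background set a floor, so that differences of the 31088 probes at background in both tissues were not measurable here. Any difference that follows the array of heart replicate 2 rests on the other pair of hearts.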

Other observations

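Among the genes at least 2-fold apart, 177 of those higher and 201 of those lower in heart stood on none of the gene lists, and the genes named in these paragraphs were chosen after their values were seen. Crip2, a LIM protein of heart and vessels, had 12998, 17144 and 14648 in heart and 813, 834 and 889 in skeletal muscle (4.13). Ptgds, a prostaglandin D synthase that is also secreted as a carrier protein, had 5280.1, 3476 and 3115 in heart and 249, 253 and 277 in skeletal muscle, at least 12.6-fold higher in heart. Acss1, which activates acetate in mitochondria, had 6732, 9246 and 7152 in heart and 747, 765 and 780.0 in skeletal muscle (3.32), Dgat2, of the last step of triglyceride synthesis, differed by 2.60, and Ech1, an isomerase for unsaturated fatty acids, by 2.10. Lrrc10, a cardiac leucine-rich repeat protein, was at least 5.44-fold higher in heart, and Cxadr, the receptor for coxsackievirus and adenovirus at cell junctions, at least 2.66-fold. The anion exchanger gene Slc4a3 differed by 2.20, the secreted chaperone gene Clu by 2.71 and the cyclin gene Ccnd1 by 1.78. Mt1, a metallothionein, had 14446, 15823 and 11378 in heart and 4163, 6174 and 2406 in skeletal muscle (1.80).

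Among those lower in heart, Nmrk2, a nicotinamide riboside kinase, had 304, 403 and 386 in heart and 5209.9, 3689.8 and 4139.6 in skeletal muscle (-3.57). Prkag3, an AMP kinase subunit of fast muscle, was at least 2.55-fold lower, and Tbc1d1, which AMP kinase phosphorylates to release glucose transporters, differed by -1.81. Camk2b, a calmodulin-dependent kinase, differed by -2.21 and Stim1, which senses the calcium store, by -2.28. Smox, the spermine oxidase, had 277, 287 and 296 in heart and 2816, 1752 and 1824 in skeletal muscle, at least 6.78-fold lower in heart. Padi2, a peptidylarginine deiminase, was at least 10.6-fold lower, Ddit4l, an inhibitor of mTOR signalling, at least 11.3-fold, and Mss51, a mitochondrial protein of skeletal muscle, at least 3.84-fold. The protein of the neuromuscular junction and Z-disc encoded by Ky had 944, 680.4 and 1023 in heart and 8190.4, 7610.1 and 6769 in skeletal muscle (-3.11), and the reticulon gene Rtn4 had 1461, 1843 and 1334 in heart and 11601, 12583 and 11601 in skeletal muscle (-2.96). None of these genes had overlapping arrays, and all were called in the same direction in the high-iron mice. They were picked among genes called at 2-fold or more on the same arrays, so the lack of overlap describes that choice. In the high-iron mice 538 of all 545 such genes were called in the same direction, so the calls there are not particular to the genes named. A further 55 probes without a gene name were at least 2-fold higher and 90 at least 2-fold lower in heart.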
